A study of Mus musculus with 24 samples.

Results

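ATP-binding cassette (ABC) genes were followed in macrophages that were grown in culture from the bone marrow of mice. The members were the rows of the normalized gene table whose symbol starts with ABC, a subfamily letter from A to G and a number, and 47 of 18132 genes met this rule. The cells came from female Balb/c mice of 8 to 10 weeks and were held for 24 h with IL-4, with IFN-gamma, with the beta-adrenergic agonist isoproterenol, or in medium alone. The 24 Illumina MouseRef-8 v2.0 arrays came from 3 experiments with 2 arrays of every group each. The labels name no genotype or other agent, and do not say whether the 2 arrays of an experiment came from separate cultures or animals. These 2 arrays were averaged before the test. A p-value here therefore reflects the scatter of the averages over these 3 experiments alone, part or all of which may be technical.

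Most ABC proteins use the energy of ATP to move substrates across membranes. The ABCE and ABCF proteins instead have the nucleotide-binding domains but no membrane span and act at the ribosome. In macrophages the family is best known for cholesterol efflux: ABCA1 passes cholesterol to lipid-poor apolipoprotein A-I and ABCG1 passes it to high-density lipoprotein, and both genes are targets of the liver X receptors. Other members export drugs and glutathione conjugates (ABCB1, ABCC), flip phosphatidylcholine (ABCB4), or bring fatty acids into peroxisomes (ABCD).

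The promoters of 3 members with large differences between activators are shown, each from 250 bases before to 50 bases after the annotated start, as RefSeq sequence on build GRCm38.p6. Abcb4 and Abcb1b were lower with IL-4 and with IFN-gamma, and Abcc5 was higher with IFN-gamma. Capitals mark CCAAT boxes, read on either strand, in Abcb4 and Abcb1b, and the motif TTCNNNGAA in Abcc5.
Abcb4, chr5:8893471-8893770, plus strand: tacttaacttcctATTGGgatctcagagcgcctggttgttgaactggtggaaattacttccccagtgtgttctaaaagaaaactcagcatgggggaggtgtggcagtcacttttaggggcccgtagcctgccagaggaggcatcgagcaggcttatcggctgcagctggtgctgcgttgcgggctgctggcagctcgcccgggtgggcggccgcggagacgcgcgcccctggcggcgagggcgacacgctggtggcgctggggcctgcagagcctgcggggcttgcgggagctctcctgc
Abcb1b, chr5:8797897-8798196, plus strand: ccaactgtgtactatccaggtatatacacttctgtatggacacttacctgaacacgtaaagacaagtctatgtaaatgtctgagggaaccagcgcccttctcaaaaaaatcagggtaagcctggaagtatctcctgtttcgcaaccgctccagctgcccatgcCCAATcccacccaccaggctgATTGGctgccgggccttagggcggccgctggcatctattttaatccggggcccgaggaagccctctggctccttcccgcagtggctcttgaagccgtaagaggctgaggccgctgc
Abcc5, chr16:20426345-20426644, minus strand: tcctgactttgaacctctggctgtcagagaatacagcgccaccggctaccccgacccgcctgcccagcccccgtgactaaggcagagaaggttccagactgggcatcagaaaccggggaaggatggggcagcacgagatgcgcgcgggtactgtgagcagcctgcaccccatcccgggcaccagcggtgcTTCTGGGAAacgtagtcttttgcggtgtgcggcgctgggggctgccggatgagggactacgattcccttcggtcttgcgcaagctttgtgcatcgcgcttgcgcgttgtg

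Promoters were found for 16 of the 24 members that could be tested, and Abcg1, Abcc3 and Abcd2 were among those without one. CCAAT stood in 6 of these 16 (Abca7, Abcb1b, Abcb4, Abcb6, Abce1 and Abcf2), against 37.4% of all 32851 promoters of this length. TTCNNNGAA stood in 1 of 16, Abcc5, against 8.3% of all promoters, and the STAT6-type spacing, TTC and GAA with 4 bases between them, stood in Abcb9 and Abcd3, against 6.95%. The cAMP half-site TGACG stood in 5 of 16 (Abcd3, Abce1, Abcf1, Abcf2 and Abcf3), against 20.8%. The interferon-response core, GAAA repeated after 2 bases, was in 0 of 16, against 3.44%. The liver X receptor repeat, AGGTCA repeated after 4 bases, was in 0 of 16, against 0.0152%. The liver X receptor targets Abca1 and Abcg1 are not among these 16, so the count says nothing about them. A member counted if any of its promoters held the motif, while the shares are over single promoters. All motifs were read on both strands, and a match marks letters only.

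A large share of the family lay at background in these macrophages, near the share of all genes. Of the 47 members, 23 (48.9%) were above the background limit of 149 normalized intensity units on fewer than 6 of 24 arrays, against 44.5% of all genes, and 24 were tested. The limit is the mode of all normalized intensities, 137, plus the normal 95% point of the spread below the mode. Of the 23 dim members, 14 were above it on 0 arrays and 9 on 1 to 3, and their single-array values ran from 118 to 155. By subfamily the tested members were 5 of 16 ABCA, 5 of 8 ABCB, 4 of 9 ABCC, 4 of 4 ABCD, 1 of 1 ABCE, 3 of 3 ABCF and 2 of 6 ABCG genes. Every peroxisomal or lysosomal ABCD gene and every soluble ABCE and ABCF gene was therefore measurable.

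**Figure D1:**
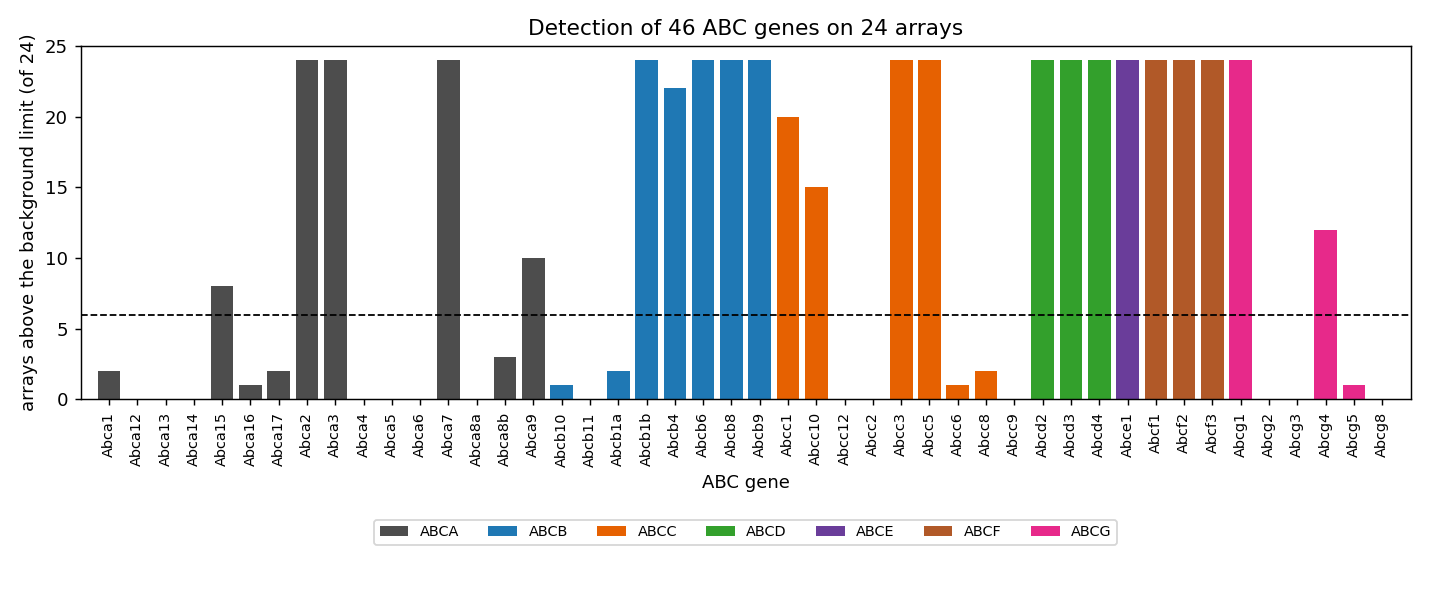
Number of the 24 arrays, on the vertical axis, on which each of 46 ABC genes was above the background limit, coloured by subfamily, with a dashed line at the 6 arrays needed for a test. The ABCD, ABCE and ABCF genes shown reach 24, and most ABCA genes lie near 0.

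The dim members were Abca1, Abca4, Abca5, Abca6, Abca8a, Abca8b, Abca12, Abca13, Abca14, Abca16, Abca17, Abcb1a, Abcb10, Abcb11, Abcc2, Abcc6, Abcc8, Abcc9, Abcc12, Abcg2, Abcg3, Abcg5 and Abcg8. Among them are the hepatic bile salt pump Abcb11, the sterol pair Abcg5 and Abcg8, the retinal Abca4, the sulfonylurea receptors Abcc8 and Abcc9, and the mitochondrial Abcb10. Just outside the filter, Abca8b was above the limit on 3 arrays, and just inside it, Abca15 was above on 8 and Abca9 on 10. Of the tested members, 18 were above the limit on all 24 arrays, and the others, besides Abca15 and Abca9, were Abcg4 on 12, Abcc10 on 15, Abcc1 on 20 and Abcb4 on 22.

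Of the members, 15 sat in 5 runs of adjacent genes in the RefSeq order, and these runs were mostly dim. In the run Abca8b, Abca8a, Abca9, Abca6 and Abca5, only Abca9 passed the filter, and in Abca14, Abca15 and Abca16 only Abca15 did. Both Abcg5 and Abcg8 were dim, and of the pair Abca17 and Abca3 only Abca3 passed. In the run of multidrug and phospholipid genes, Abcb1a was dim while Abcb1b and Abcb4 were tested.

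Markers of macrophages and of other cells were read beside these genes. The arrays lay on 4 slides, with all of experiment 1 on slide 1. Isoproterenol of experiment 2 and medium of experiment 3 were on slide 3. The other arrays of experiment 2 were on slide 2, and those of experiment 3 on slide 4. Every difference from medium in experiment 3, and that of isoproterenol in experiment 2, therefore crosses slides. The macrophage markers were above the limit for 9 of 9 genes, with summed intensities of 65347 to 69289 with IL-4, 60377 to 62723 with IFN-gamma, 73564 to 76276 with isoproterenol and 70590 to 74121 in medium. Within that list Cd68 (log2 fold change −0.88 against medium) and Cd14 (−0.99) were among the genes that fell with IFN-gamma, Fcgr1 (2.48) and Mertk (1.49) rose, and Lyz2 was at 0.015 (limma adjusted p = 0.869). Neutrophil and precursor markers were above it for 6 of 6, and their sums were 1780 to 2038 with IL-4, 4409 to 4908 with IFN-gamma, 2199 to 2591 with isoproterenol and 2096 to 2715 in medium. S100a8 (1.45) was the only gene of that list called higher with IFN-gamma, S100a9 (−0.34) and Mpo (−0.60) fell, and Ngp, Camp and Ltf were not called. Dendritic markers were above it for 4 of 7, with Cd209a on 0 arrays, and their sums were 1885 to 2014 with IL-4, 1446 to 1544 with IFN-gamma, 1130 to 1162 with isoproterenol and 1202 to 1238 in medium. These sums followed mostly Batf3, listed under an older name, which averaged 978 with IL-4, 613 with IFN-gamma, 261 with isoproterenol and 312 in medium. Itgax (−0.40) fell and Clec9a (0.26) rose with IFN-gamma, and Flt3 and Zbtb46 were at background. Fibroblast markers were above it for 0 of 6 and platelet markers for 0 of 3. T and NK cell markers were above it for 3 of 6 and endothelial markers for 3 of 4. B cell, mast cell and erythroid markers were each above it for 1 of 4. In these lists Lck (0.52) and Pecam1 (0.17) rose and Cd79b (−0.24) fell with IFN-gamma, and no other gene was called. The part of these marker shifts in the ABC results was not tested, and in bulk RNA fewer cells of a type and less RNA per cell cannot be told apart.

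Against medium, IFN-gamma changed the most members, IL-4 fewer, and isoproterenol 1. Differences were fitted with limma on the log2 scale after a background step, with 3 experiments a group and experiment as a term, and called at an adjusted p under 0.05 over 10059 genes. With IL-4, 1 of 24 tested members was higher and 2 were lower, where 7.81% of all tested genes were called (4.05% higher and 3.77% lower). With IFN-gamma, 2 were higher and 7 lower, which is 37.5% of the members, where 43.3% of all tested genes were called (17.4% higher and 25.9% lower). With isoproterenol, 1 was higher and 0 were lower, where 1.28% of all tested genes were called (1.01% higher and 0.268% lower). At an unadjusted p under 0.05 the members numbered 8, 11 and 3 for IL-4, IFN-gamma and isoproterenol. The members' median log2 fold changes were 0.01 with IL-4, −0.03 with IFN-gamma and 0.01 with isoproterenol, against −0.01, −0.03 and −9e-04 over all tested genes. With IFN-gamma the share of members called was near that of all genes, and the 3 comparisons use the same medium arrays.

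**Figure D2:**
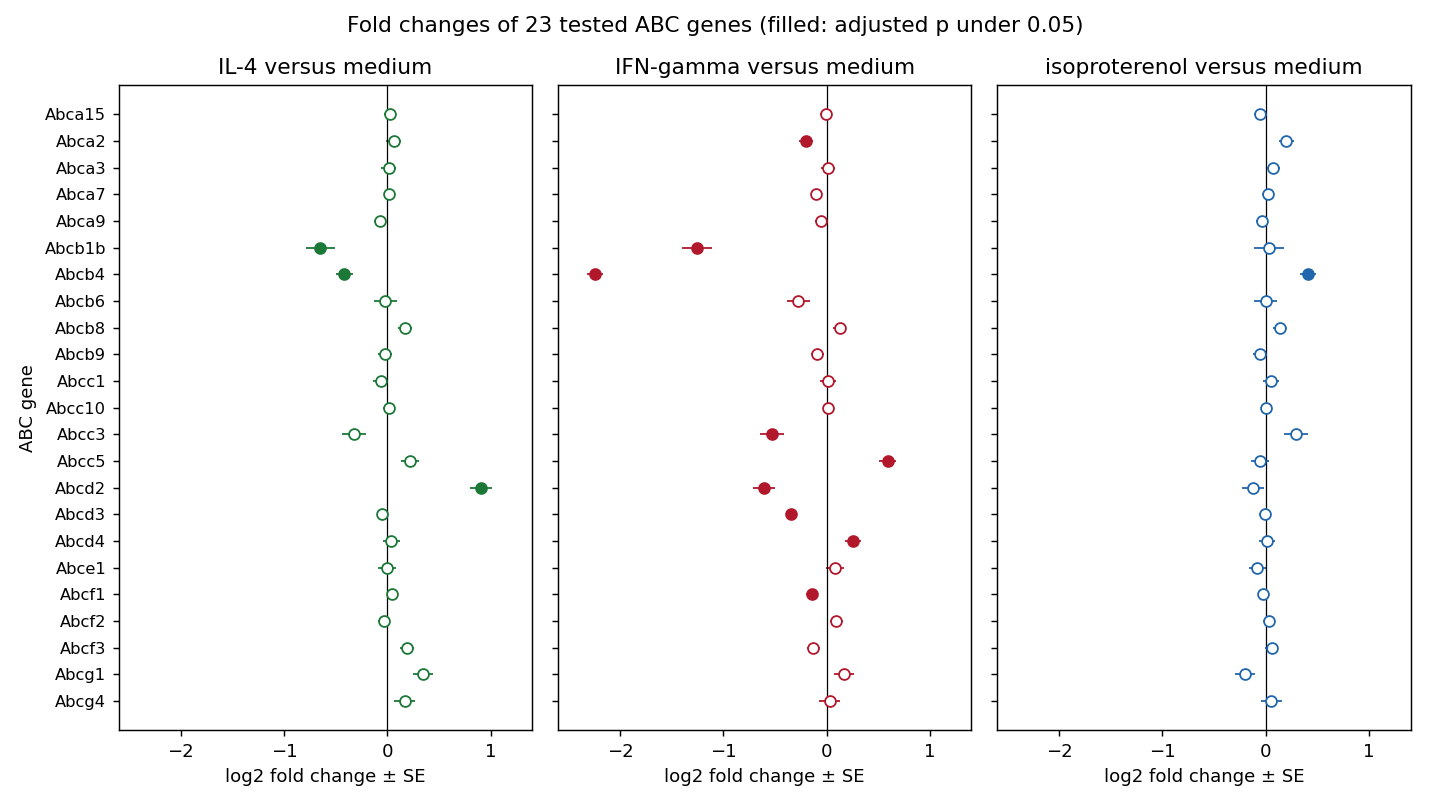
Log2 fold change against medium (horizontal axis) with its standard error for 23 of the 24 tested ABC genes (rows) with IL-4, IFN-gamma and isoproterenol, with filled points for an adjusted p under 0.05. Abcb4 and Abcb1b lie far to the left with IFN-gamma, and Abcd2 lies to the right with IL-4 and to the left with IFN-gamma.

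Abcb4, which flips phosphatidylcholine to the outer leaflet and is best known from the bile canaliculus, was called against medium with IL-4, IFN-gamma and isoproterenol. Its normalized intensities in experiments 1, 2 and 3 were 346, 390 and 381 with IL-4, 162, 161 and 145 with IFN-gamma, 612, 627 and 576 with isoproterenol, and 438, 526 and 458 in medium. The values of the 4 groups did not overlap: isoproterenol was highest, medium next, IL-4 below it and IFN-gamma near the background limit.

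Abcb4 was 1.34-fold lower with IL-4 than in medium (log2 fold change −0.42 ± 0.08 SE, limma adjusted p = 0.00818). It was 4.73-fold lower with IFN-gamma (−2.24 ± 0.08, limma adjusted p = 2.44e-09), and it was above the limit on only 4 of the 6 IFN-gamma arrays, so that the size of this difference is uncertain. It was −1.61 without the background step and −2.87 with an offset of 16 in place of 50.

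With isoproterenol Abcb4 was 1.33-fold higher than in medium (0.41 ± 0.08, limma adjusted p = 0.0377), by 0.55, 0.29 and 0.38 in experiments 1, 2 and 3. Only in experiment 1 did the isoproterenol and medium arrays share a slide, where the difference was 0.55 with an adjusted p of 0.672 from limma. With slide and experiment as terms it was 0.46 (limma adjusted p = 0.0709), and leaving out any experiment put the adjusted p between 0.142 and 0.228, so the call rests on all 3 experiments.

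Abcb1b, 1 of the 2 mouse P-glycoprotein genes that pump drugs and other hydrophobic compounds out of cells, lies beside Abcb4. Its intensities in experiments 1, 2 and 3 were 453, 541 and 505 with IL-4, 348, 481 and 277 with IFN-gamma, 738, 801 and 733 with isoproterenol, and 704, 793 and 732 in medium. All IL-4 and IFN-gamma values lay below all isoproterenol and medium values, which overlapped each other.

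Abcb1b fell 1.57-fold with IL-4 (−0.65 ± 0.14, limma adjusted p = 0.0156) and 2.39-fold with IFN-gamma (−1.25 ± 0.14, limma adjusted p = 2.5e-05). With isoproterenol the log2 difference was 0.03 ± 0.14 (limma adjusted p = 0.969). The IFN-gamma arrays of experiment 1 differed from each other, with 254 on array 1 and 442 on array 2, and of the 12 pairs of arrays from 1 group and experiment this pair had the lowest correlation, 0.977. Abcb1a, Abcb1b and Abcb4 are close paralogues, and whether their probes also read each other's transcripts was not tested.

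**Figure D3:**
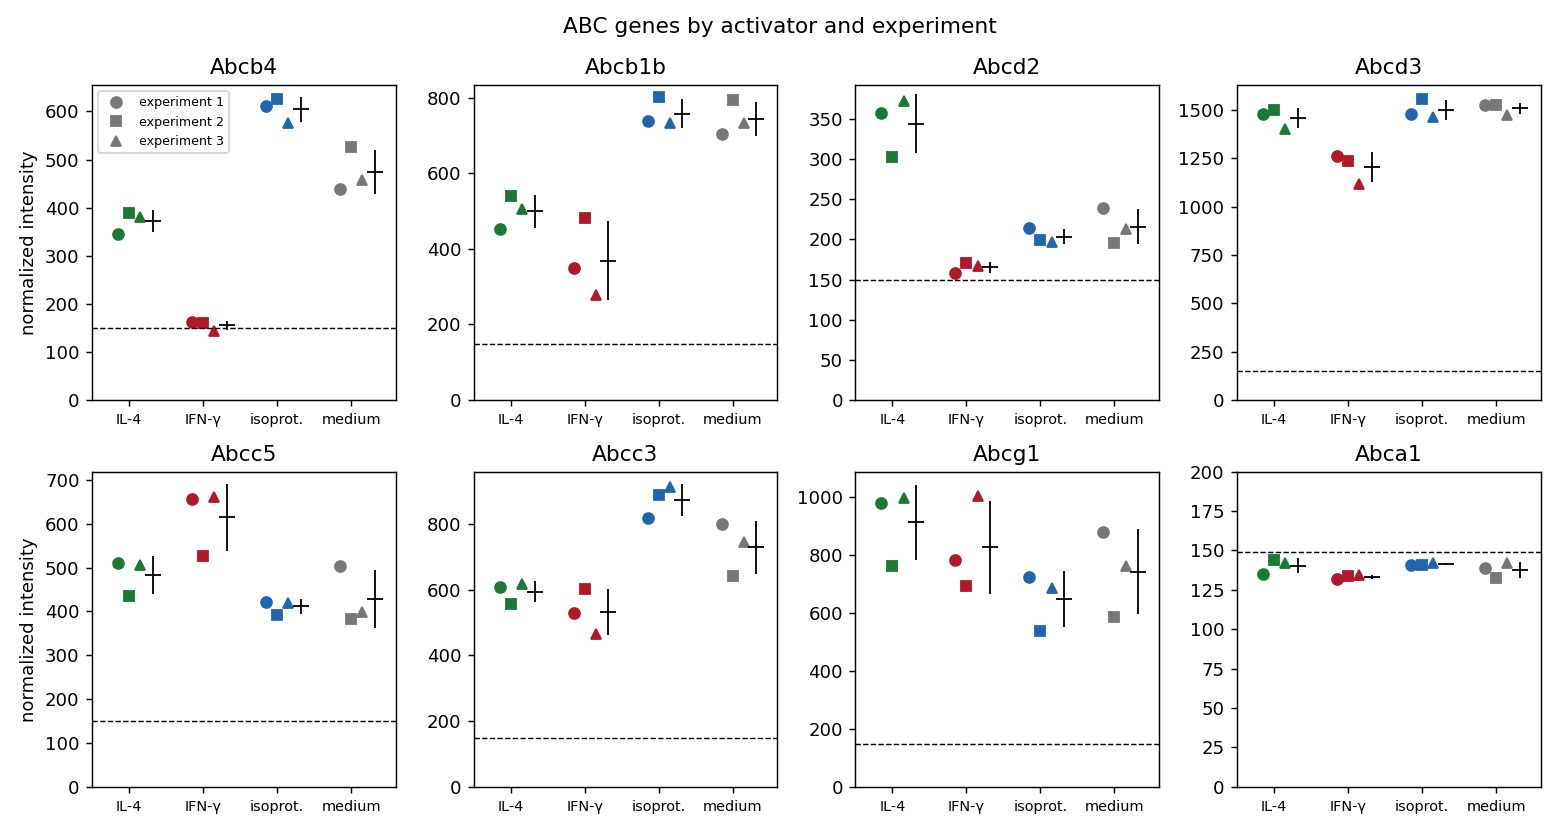
Normalized intensity (vertical axis, linear from 0) of 8 ABC genes with IL-4, IFN-gamma, isoproterenol and medium, with a symbol for each experiment, the mean and SD beside them (n = 3) and the background limit as a dashed line. Abcb4 with IFN-gamma and Abca1 in every group lie near the limit of 149.

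None of the other tested ABCB genes was called against medium. Abcb6, which carries porphyrins, averaged 299 ± 38.9 with IL-4, 267 ± 46.8 with IFN-gamma, 301 ± 28.2 with isoproterenol and 302 ± 18.2 in medium (SD, n = 3). Abcb8, of the mitochondrial inner membrane, averaged 369 ± 13.6, 359.8 ± 16.5, 362 ± 17.2 and 335 ± 12.1 in the same order of groups. Abcb9, a lysosomal peptide transporter, averaged 170.4 ± 4.3, 166 ± 7.5, 168 ± 3.69 and 172 ± 5.23.

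Among the peroxisomal ABCD transporters, Abcd2 changed with IL-4 and with IFN-gamma, and Abcd3 changed with IFN-gamma. Abcd2 carries very long-chain and polyunsaturated fatty acids. It measured 358, 302 and 373 with IL-4, 158, 171 and 167 with IFN-gamma, 214, 199 and 197 with isoproterenol, and 239, 196 and 213 in medium in experiments 1, 2 and 3. IL-4 values were all highest, IFN-gamma values all lowest, and isoproterenol and medium overlapped.

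Abcd2 rose 1.87-fold with IL-4 (0.91 ± 0.11, limma adjusted p = 0.000297), by 0.76, 0.88 and 1.08 in the 3 experiments. It fell 1.52-fold with IFN-gamma (−0.60 ± 0.11, limma adjusted p = 0.000726), and the difference with isoproterenol was −0.12 ± 0.11 (limma adjusted p = 0.774). Without the background step Abcd2 was at 0.67 with IL-4 and −0.38 with IFN-gamma, and with an offset of 16 at 1.1 and −0.85. Its IFN-gamma arrays read 154 to 179, just above the limit. Its row, like those of the called members Abcc5, Abcd4 and Abcf1, could not be matched to a single probe.

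Abcd3 carries branched-chain acids and bile acid precursors. It measured 1481, 1500 and 1402 with IL-4, 1262, 1238 and 1116 with IFN-gamma, 1482, 1560 and 1464 with isoproterenol, and 1524, 1528 and 1474 in medium. The IFN-gamma values lay below all others, and the other groups overlapped. The fall with IFN-gamma was 1.27-fold (−0.34 ± 0.05, limma adjusted p = 0.000299).

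Abcd4 is lysosomal and takes part in cobalamin release. It measured 218, 207 and 219 with IL-4, 228, 229 and 259 with IFN-gamma, 214, 209 and 210 with isoproterenol, and 223, 209 and 201 in medium. It was 1.19-fold higher with IFN-gamma (0.26 ± 0.08, limma adjusted p = 0.0207), by 0.05, 0.20 and 0.53 in experiments 1, 2 and 3. Without experiment 3 the difference was 0.12 (limma adjusted p = 0.231), and without experiment 2 it was 0.29 (limma adjusted p = 0.0829).

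In the ABCC group of organic anion exporters, Abcc5 and Abcc3 moved in opposite directions with IFN-gamma. Abcc5 exports cyclic nucleotides and other organic anions. It measured 511, 434 and 506 with IL-4, 656, 526 and 662 with IFN-gamma, 421, 393 and 420 with isoproterenol, and 503, 382 and 399 in medium. IFN-gamma values were all the highest, and the isoproterenol and medium values overlapped.

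Abcc5 rose 1.51-fold with IFN-gamma (0.59 ± 0.08, limma adjusted p = 0.000165), by 0.38, 0.55 and 0.84. The pair of IFN-gamma arrays in experiment 1 read 813 and 500. With IL-4 the difference was 0.22 (limma adjusted p = 0.176).

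Abcc3 exports bile salts and glucuronides. Its intensities were 607, 557 and 616 with IL-4, 528, 603 and 464 with IFN-gamma, 818, 887 and 910 with isoproterenol, and 799, 640 and 746 in medium. The isoproterenol values lay above all others, and IFN-gamma values lay below all medium values.

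Abcc3 was 1.44-fold lower with IFN-gamma (−0.53 ± 0.12, limma adjusted p = 0.00348), by −0.72, −0.09 and −0.77. The IFN-gamma arrays of experiment 1 read 412 and 645, and the call was lost within slide 2 (−0.09, limma adjusted p = 0.455) and without experiment 1 (−0.43, limma adjusted p = 0.0619). The difference with isoproterenol was 0.29 (limma adjusted p = 0.363) and with IL-4 −0.32 (limma adjusted p = 0.141). Abcc1, which exports leukotriene C4 and glutathione conjugates, was near the limit at 151 ± 4.27 with IL-4, 156 ± 9.42 with IFN-gamma, 158 ± 4.54 with isoproterenol and 155 ± 4.25 in medium.

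Neither of the main cholesterol exporters was called against medium. Abca1 was at background: its intensities were 135, 144 and 142 with IL-4, 132, 134 and 135 with IFN-gamma, 141, 141 and 142 with isoproterenol, and 139, 132 and 142 in medium. It was above the limit on 1 IL-4 array and 1 medium array, and no fold change is given. Whether the probe behind this row reads the transcript was not tested.

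Abcg1 was above the limit on all 24 arrays. It measured 979, 763 and 994 with IL-4, 781, 693 and 1002 with IFN-gamma, 722, 539 and 684 with isoproterenol, and 878, 587 and 760 in medium in experiments 1, 2 and 3. Experiment 2 was lowest in every group, and the range of each activator overlapped that of medium, but within experiments the differences from medium had 1 sign with IL-4 and with isoproterenol.

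Abcg1 was not called against medium. The log2 difference was 0.34 ± 0.10 with IL-4 (95% interval 0.13 to 0.56, limma adjusted p = 0.0604), 0.17 ± 0.10 with IFN-gamma (limma adjusted p = 0.201) and −0.20 ± 0.10 with isoproterenol (limma adjusted p = 0.477). By experiment it was 0.17, 0.43 and 0.42 with IL-4, −0.20, 0.27 and 0.43 with IFN-gamma, and −0.31, −0.13 and −0.17 with isoproterenol. The IFN-gamma arrays of experiment 1, the pair with the lowest correlation, read 890 and 671 for Abcg1. The IL-4 and medium pairs of experiment 1 correlated at 0.996 and 0.997. Without experiment 1 the IL-4 difference was 0.43 (limma adjusted p = 0.0265) and the IFN-gamma difference 0.35 (limma adjusted p = 0.0112), and both were called. The IL-4 difference gained the call in 4 of 16 alternatives, over which its limma adjusted p ran from 0.0151 to 0.795. The IFN-gamma difference gained it in 2 of 17 alternatives and reversed in 1, with limma adjusted p from 0.0112 to 0.829.

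Of the other lipid-handling ABCA genes, Abca2, an endolysosomal lipid transporter, was called. It measured 208, 204 and 220 with IL-4, 187, 193 and 183 with IFN-gamma, 215, 217 and 244 with isoproterenol, and 203, 208 and 203 in medium. IFN-gamma values were below all others, with a 1.15-fold fall (−0.20 ± 0.07, limma adjusted p = 0.044), and without any 1 of the experiments the adjusted p was 0.069 to 0.167. Abca3, which loads phospholipid into lamellar bodies, averaged 1035 ± 97.8 with IL-4, 1041 ± 122 with IFN-gamma, 1073 ± 52.2 with isoproterenol and 1027 ± 80.2 in medium. Abca7, a phospholipid exporter, averaged 366 ± 17.8, 343 ± 12.9, 366 ± 5.28 and 363 ± 14.5 in the same order, and neither was called.

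The soluble ABC proteins of translation moved little. Abcf1, which binds initiation factor eIF2, measured 1055, 1096 and 1078 with IL-4, 937, 982 and 938 with IFN-gamma, 1031, 1014 and 1037 with isoproterenol, and 1052, 1051 and 1036 in medium. IFN-gamma values were below all others, by 1.11-fold (−0.15 ± 0.05, limma adjusted p = 0.0357), and leaving out 1 experiment gave adjusted p of 0.101 to 0.224. Abce1, which splits ribosomes after termination, averaged 175 ± 6.77 with IL-4, 182 ± 7.5 with IFN-gamma, 169 ± 4.91 with isoproterenol and 175 ± 12.4 in medium. Abcf2, a paralogue of Abcf1, averaged 776 ± 37.3, 842 ± 35.4, 808 ± 35.2 and 793 ± 42.7 in the same order. Abce1, Abcf2 and Abcf3 were not called against medium with any activator.

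The dimmest tested members were not called against medium. Abcg4 was above the limit on 6 of 6 IL-4 arrays and on 2 of 6 in each other group, and averaged 154 ± 1.81 with IL-4, 147 ± 8.14 with IFN-gamma, 148 ± 4.49 with isoproterenol and 145 ± 10.6 in medium. Abcc10 averaged 152 ± 4.53, 152 ± 6.56, 152 ± 4.25 and 151 ± 6.05 in the same order of groups. Abca9 averaged 146 ± 3.14, 147 ± 1.96, 148 ± 4.83 and 149.8 ± 1.78, and Abca15 averaged 150.3 ± 6.34, 148 ± 2.92, 145 ± 2.41 and 149 ± 0.53. Abcg4 was called against medium with IL-4 and with IFN-gamma when slide and experiment were terms on single arrays, and with IFN-gamma without experiment 3.

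With IFN-gamma alone, some members that were not called had differences from medium as large as those of called ones. The lowest of the 15 not called with IFN-gamma was −0.28 (Abcb6), while Abcf1 was called at −0.15. With IL-4 the 21 lay between −0.32 (Abcc3) and 0.34 (Abcg1), smaller in size than every called difference. With isoproterenol the 23 lay between −0.20 (Abcg1) and 0.29 (Abcc3), smaller in size than the called Abcb4. Their lowest limma adjusted p was 0.302 (Abca2).

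Between activators, isoproterenol and IL-4 differed in 5 members. Abcb4 (0.83), Abcb1b (0.68) and Abcc3 (0.62) were higher with isoproterenol than with IL-4, and Abcd2 (−1.03) and Abcg1 (−0.54) were lower. That is 3 higher and 2 lower of 24, where 11.1% of all tested genes were called (6.49% higher and 4.58% lower). For Abcg1 the difference held in each experiment, at −0.48, −0.56 and −0.59 (limma adjusted p = 0.00389).

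Isoproterenol and IFN-gamma differed in 10 members, 7 higher and 3 lower with isoproterenol, where 46.2% of all tested genes were called (26.9% higher and 19.2% lower). The higher ones were Abcb4 (2.65), Abcb1b (1.29), Abcc3 (0.82), Abcd2 (0.48), Abca2 (0.40), Abcd3 (0.33) and Abcf3 (0.18). The lower ones were Abcc5 (−0.65), Abcg1 (−0.37) and Abcd4 (−0.25). The log2 difference of Abcg1 between isoproterenol and IFN-gamma was −0.11, −0.41 and −0.60 in experiments 1, 2 and 3 (limma adjusted p = 0.00881).

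IL-4 and IFN-gamma differed in 9 members, 7 higher and 2 lower with IL-4, where 44.2% of all tested genes were called (25.4% higher and 18.7% lower). The higher ones were Abcb4 (1.82), Abcd2 (1.51), Abcb1b (0.61), Abcf3 (0.32), Abcd3 (0.30), Abca2 (0.26) and Abcf1 (0.19). The lower ones were Abcc5 (−0.37) and Abcd4 (−0.22). Abcf3 measured 992, 879 and 973 with IL-4, 769, 741 and 817 with IFN-gamma, 862, 906 and 843 with isoproterenol, and 860, 818 and 840 in medium. Its IL-4 and IFN-gamma values did not overlap, though neither activator was called against medium.

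Genes that work with ABC transport were read from lists chosen by function, against the 43.3% of all tested genes called with IFN-gamma (17.4% higher and 25.9% lower). The shares of all tested genes called were 7.81% with IL-4 and 1.28% with isoproterenol. Of 16 tested lipid efflux and liver X receptor partners, 2 rose and 9 fell with IFN-gamma, with a median log2 fold change of −0.40 against −0.03 over all tested genes. Pparg (−1.44), Apoe (−1.36), Pltp (−1.25) and Apoc2 (−1.12) fell with IFN-gamma. With IL-4, 3 rose and 1 fell: Arl4c (0.74), Pparg (0.55) and Scd2 (0.50) rose and Apoc2 (−0.93) fell. With isoproterenol 2 rose, Apoc2 (0.71) and Arl4c (0.60), and 0 fell. Of 10 tested genes of cholesterol uptake and storage, 2 rose and 5 fell with IFN-gamma (median −0.35), among them Nceh1 (−0.79), Stard4 (−0.77), Cav1 (−0.54) and Npc2 (0.71). With IL-4 Stard4 (0.36) rose, and with isoproterenol Cav1 (1.07), the caveolae protein, rose.

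**Figure D4:**
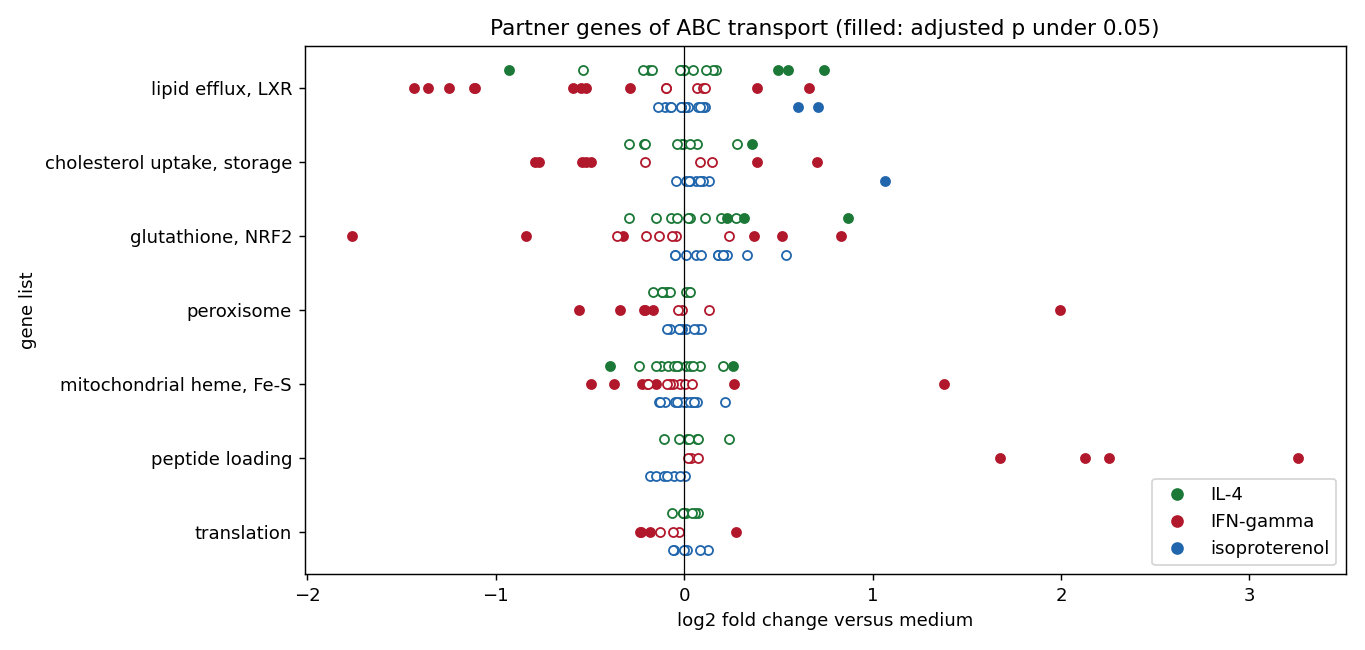
Log2 fold change against medium (horizontal axis) of each tested partner gene, by list (rows) and activator (colour), with filled points for an adjusted p under 0.05. The points of Tap1, Tapbpl and Tap2 with IFN-gamma lie furthest right, and most called lipid efflux points with IFN-gamma lie left of 0.

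The partners of ABCC export, which make and conjugate glutathione, had 3 higher and 3 lower of 12 tested with IFN-gamma, among them Gstm1 (−1.76), Ltc4s (−0.84), Keap1 (0.83) and Gstp1 (0.52), and these 6 of 12 are near the 43.3% of all genes. With IL-4, 3 of 12 rose, where 7.81% of all tested genes were called: Slc7a11 (0.87), the cystine importer, Hmox1 (0.32) and Nqo1 (0.23). With isoproterenol 0 of 12 were called. Of 9 tested peroxisomal partners of the ABCD group, 1 rose and 5 fell with IFN-gamma: Acsl1 (1.99) rose, and Hsd17b4 (−0.56), Decr2 (−0.34) and Pex14 (−0.21) were among those that fell.

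Of 14 tested mitochondrial heme and iron-sulfur genes, 2 rose and 5 fell with IFN-gamma, led by the iron importer Slc25a37 (1.38), Urod (−0.49), Alad (−0.37) and Slc25a28 (0.26), and these 7 of 14 are near the 43.3% of all genes. With IL-4, Alas1 (0.26) rose and Slc25a37 (−0.39) fell. Of 7 tested translation partners, 1 rose and 3 fell with IFN-gamma: Pelo (0.28) rose, and Eif3j (−0.24), Hbs1l (−0.23) and Gspt1 (−0.18) fell. These 4 of 7 are too few genes to set apart from the 43.3% of all genes.

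Tap1 and Tap2 are ABC proteins of peptide loading whose symbols the naming rule does not catch. Both rose with IFN-gamma, Tap1 9.57-fold (3.26 ± 0.07, limma adjusted p = 5.45e-11) and Tap2 4.37-fold (2.13 ± 0.10, limma adjusted p = 1.95e-08). Tap1 averaged 283 with IL-4, 2273 with IFN-gamma, 272 with isoproterenol and 300.1 in medium. Of 7 tested peptide loading genes, 4 rose and 0 fell with IFN-gamma, and the median log2 fold change was 1.67, with Tapbpl (2.26) and Tapbp (1.67) as the others. With IL-4 and with isoproterenol, 0 of 7 were called.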

How the data were processed

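Biotin-labelled cRNA was measured on Illumina bead arrays and read with GenomeStudio, per the submitters' processing notes, whose version no source used here gives. The deposited values are linear intensities: a non-normalized table of 25697 probes and gene-level normalized intensities. The authors' normalized intensities look quantile-normalized without background subtraction, since in 98.9% of ranks the sorted values had a coefficient of variation below 1% over the arrays. The tables hold no detection p-values, and which probes stand behind a gene is not given: 27 of the 47 members matched a single probe, 12 of them tested.

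The normalized intensities were background-corrected with limma 3.58.1 in R 4.3.3 (normexp, offset 50), taken to log2, and the 2 arrays of each experiment and activator averaged to 12 values. Genes above the background limit on at least 6 of 24 arrays were fitted with group and experiment as terms, moderated by empirical Bayes, with two-sided p-values and Benjamini-Hochberg adjustment over 10059 genes. Fold changes are on the background-corrected log2 scale, so for dim genes they run larger than ratios of the normalized intensities. Means ± SD are normalized intensities over 3 experiments. The number of arrays limits the precision. Array medians lay between 150.02 and 150.38, and 9199 to 9276 genes per array were above the limit. The labels give experiment numbers, and samples of 1 experiment deviated together in 16 of 18 pairs (correlation over 0.1), so experiment was kept as a block. The other pairs were medium with IL-4 (0.047) and with IFN-gamma (0.027) in experiment 3, whose medium arrays lay on another slide. The fit was tested on simulated data. Full values were given for Abca1, Abcg1, Abcb4 and, per activator against medium, up to 12 called members by size with 1 sign in all experiments, and up to 4 called partners per list. Abcf3, outside that rule, was chosen after its values were seen. Members and lists were chosen with earlier results of these data known. Promoters are RefSeq's. Values of 1 member are not reported here, though it is in the counts.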

Additional observations from a re-analysis of the deposited data

Results flagged for a closer look

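Within a group of 6 arrays, a single array stood far from the others in 5 of 96 sets of member values (5.21%), close to the 1 in 20 that chance gives. The gap to the nearest array, as a share of the group's whole range, was compared with Dixon's 95% critical value. Abca7 was flagged in isoproterenol, where array 2 of experiment 1 read 383 and the nearest array 368 (share 0.666). In medium Abca7 was low on array 1 of experiment 2, at 325 with the nearest at 366 (0.805). Abca9 was high with IL-4 on array 1 of experiment 3, at 155 with the nearest at 147 (0.634), and Abcc10 was low with IL-4 on array 2 of experiment 2, at 143 with the nearest at 152 (0.657). Abcd2 was high with isoproterenol on array 1 of experiment 1, at 226 with the nearest at 205 (0.637).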

How the results depend on the processing

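Of 259 alternatives for 16 member results, 212 kept direction and call, 40 lost the call, 6 gained it and 1 reversed: Abcg1 with IFN-gamma within slide 1 was −0.20. The causes were not tested, except that fits within a slide hold fewer samples and matched probes fewer members. The called members (IL-4 against medium, 3) numbered 5 with experiment and activator as a random block (correlation 0.121), 7 with single arrays as independent, 5 with only both groups and 1 within slide 1. IFN-gamma against medium (9) gave 4 within slide 1, 5 within slide 2 and 4 with matched probes, and without the background step 3 were higher and 6 lower. Isoproterenol against medium (1) gave 0 in limma with an offset of 16, with no replicate block, with slide and experiment terms and within slide 1, and 0 to 0 when an experiment was left out, with 3, 3, 4, 2 and 2 at an unadjusted p under 0.05. Isoproterenol against IL-4 (5) gave 3 with no replicate block and 2 within slide 1. Isoproterenol against IFN-gamma (10) gave 4 within slide 1 and 6 with matched probes. IL-4 against IFN-gamma (9) gave 3 within slide 1, 5 within slide 2 and 5 with matched probes. Members at background (23) numbered 14 when 1 array sufficed, and with a limit of 157 units in place of 149 only 20 members were tested. Without the experiment block Abcb4 with isoproterenol had a limma adjusted p of 0.177. A fit within slide 3 was not run, since its groups came from different experiments. Signal over background limits Abca1 and the other dim members.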
